A study of Rattus norvegicus with 6 samples.

Results

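The 10 genes described here are Fabp7 (gene ID 80841), Kcnj10 (29718), Glul (24957), Gfap (24387), Gja1 (24392), Slc1a3 (29483), Apoe (25728), Ednrb (50672), Aldoc (24191) and Bcan (25393). They are genes by which satellite glial cells of sensory ganglia are commonly recognised. They were taken by symbol from a table of 22864 genes, and all 10 had a row and passed the filter on low counts that 15531 genes passed. Bulk RNA sequencing was run on the L4-L6 dorsal root ganglia (DRG), the ganglia of the hind limb, from the operated side of male wild-type rats. In the CPIP groups (the chronic post-ischaemia pain model) a ring held the hind limb tight near the ankle for 3 h under pentobarbital, and the Sham+Veh group had the same anaesthesia with no ring. Intrathecal injections were daily from day 2, of vehicle in Sham+Veh and CPIP+Veh and of etanercept, a decoy receptor that captures the cytokine TNF, in CPIP+ETA. Ganglia were collected on day 7 and each group has 2 libraries, numbered 1 and 2. No group combined etanercept with sham treatment, and the labels give no strain or age. Nor do they state that the libraries of a group are different animals, so every p-value reflects only the spread among these libraries, which may be technical.

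Satellite glial cells wrap the cell body of each sensory neuron in a thin sheath. They take up glutamate and potassium that the neuron releases, are joined to one another by gap junctions, and are known to switch on the filament protein Gfap and to couple more widely after nerve injury. None of the 10 genes is exclusive to them: Apoe is also abundant in macrophages, Gja1 in fibroblasts, Aldoc in neurons, and Gfap and Slc1a3 in Schwann cells or in astrocytes of the spinal cord. The 10 genes were counted between 203 times (Gfap in Sham+Veh 1) and 84917 times (Apoe in Sham+Veh 2) in libraries of 18284891 to 19981081 reads, so all were present in every library. CPIP+ETA 1 stood apart from the rest: over all genes its counts differed from those of the other libraries by a chi-square per gene of 9.41 to 12.3, against 5.91 to 7.23 between any others. Values without it are therefore given below for most fold changes of the 10 genes that use it. For the related genes no such values are given. In whole ganglia, fewer satellite cells and less RNA per satellite cell cannot be told apart.

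The stretches of DNA just before 3 of these genes are shown because these genes had the lowest p-values among the 10: Fabp7 and Bcan in CPIP+ETA against Sham+Veh, and Glul in CPIP+ETA against CPIP+Veh. Each line holds the 250 bases before an annotated start in RefSeq (build GRCr8, a later build than that of the counts), read 5′ to 3′ on the strand of the gene, and Glul has 2 annotated starts. The windows are chr20:37669356-37669605 (+ strand) for Fabp7, chr2:175765315-175765564 (- strand) for Bcan, and chr13:68519250-68519499 and chr13:68575816-68576065 (both + strand) for Glul. Capitals mark matches, on either strand, to any of 6 short motifs.
Fabp7: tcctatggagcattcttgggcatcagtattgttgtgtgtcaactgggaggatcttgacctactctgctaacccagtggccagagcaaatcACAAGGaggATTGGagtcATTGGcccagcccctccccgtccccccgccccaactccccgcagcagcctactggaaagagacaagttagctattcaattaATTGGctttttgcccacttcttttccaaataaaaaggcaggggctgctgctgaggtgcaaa
Bcan: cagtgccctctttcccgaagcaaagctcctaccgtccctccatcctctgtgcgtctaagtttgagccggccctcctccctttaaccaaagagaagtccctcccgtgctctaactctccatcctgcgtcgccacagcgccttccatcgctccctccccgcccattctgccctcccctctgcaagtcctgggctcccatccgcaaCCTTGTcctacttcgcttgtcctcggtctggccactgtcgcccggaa
Glul, start 1: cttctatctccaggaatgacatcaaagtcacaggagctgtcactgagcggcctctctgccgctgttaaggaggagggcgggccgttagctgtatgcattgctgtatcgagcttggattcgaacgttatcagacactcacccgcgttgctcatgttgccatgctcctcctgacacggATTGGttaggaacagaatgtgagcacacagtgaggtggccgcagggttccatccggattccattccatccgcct
Glul, start 2: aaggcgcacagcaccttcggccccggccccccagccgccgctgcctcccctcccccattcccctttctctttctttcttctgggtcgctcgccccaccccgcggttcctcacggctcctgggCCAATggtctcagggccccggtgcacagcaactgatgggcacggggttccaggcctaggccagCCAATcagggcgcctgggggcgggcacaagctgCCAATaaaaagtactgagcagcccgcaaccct

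The motifs searched, with N for any base, included ACAANG (a loose form of the core bound by SOX factors) and TGGGAA (bound by RBPJ, the factor of Notch signalling). The others were TTCNNNGAA (bound by STAT factors), AGAACA (a half-site of the glucocorticoid receptor), TATAA (the TATA box) and CCAAT (the CCAAT box). In the Fabp7 window a SOX core lay 155 to 160 bases before the start, and CCAAT boxes lay 138 to 142, 147 to 151 and 57 to 61 bases before it. The Bcan window held a SOX core 42 to 47 bases before the start. The Glul windows held only CCAAT boxes, 1 before the first start and 3 before the second. No 2 matches in these 4 windows overlapped. Over the 15 windows of all 10 genes, SOX cores stood in 8 windows of 5 genes, RBPJ cores in 6 windows of 4 genes, CCAAT boxes in 5 windows of 4 genes and a TATA box in 1 window, and the windows of Slc1a3 and of Apoe partly repeat one another. STAT cores and glucocorticoid half-sites stood in 0 of the 15. Among all 33469 windows of that length, 36.9% held the SOX core, 22.1% the RBPJ core, 7.67% the STAT core, 17.5% the glucocorticoid half-site, 24.0% TATAA and 34.0% CCAAT. A match is a run of letters and not a measured binding site.

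None of the 10 genes differed between any of the groups once p-values were adjusted over all genes. In edgeR's quasi-likelihood test 0 of 10 were called (Benjamini-Hochberg adjusted p under 0.05) in CPIP+Veh against Sham+Veh, where 0.0193% of all genes were called, 0 of 10 in CPIP+ETA against CPIP+Veh (0.00% of all genes), and 0 of 10 in CPIP+ETA against Sham+Veh (0.0193%). A test of all 3 groups at once called 0 of 10 (0.00644% of all genes). Before adjustment, the counts of genes with p under 0.05 were 0 of 10 (4.94% of all genes), 0 of 10 (5.15%), 2 of 10 (6.37%) and, for the 3-group test, 1 of 10 (5.52%). DESeq2 and limma-voom likewise called 0 of the 10 in each pairwise comparison.

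The differences went in both directions. Regardless of sign, the median size of the log2 fold change over the 10 genes was 0.10 in CPIP+Veh against Sham+Veh, 0.08 in CPIP+ETA against CPIP+Veh and 0.19 in CPIP+ETA against Sham+Veh, where all genes gave 0.09 in each. With sign, the median log2 fold change of the 10 genes was -0.04 in CPIP+Veh against Sham+Veh, with 4 genes above 0 and 6 below, and the genes spanned -0.15 to 0.28. It was 0.03 in CPIP+ETA against CPIP+Veh (7 above 0, 3 below, -0.18 to 0.27) and 0.07 in CPIP+ETA against Sham+Veh (5 above, 5 below, -0.26 to 0.46). The median over all genes tested was 0.00 in each of these comparisons. Without CPIP+Veh 1 the first median became 0.04. The second became -0.05 without CPIP+ETA 2, 0.14 without CPIP+ETA 1 or without CPIP+Veh 2, and 0.11 when CPIP+Veh 1 was left out. The third became -0.02 without CPIP+ETA 2, 0.14 without CPIP+ETA 1 and 0.03 without Sham+Veh 1. The comparisons share libraries, so they are not independent of one another.

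**Figure D1:**
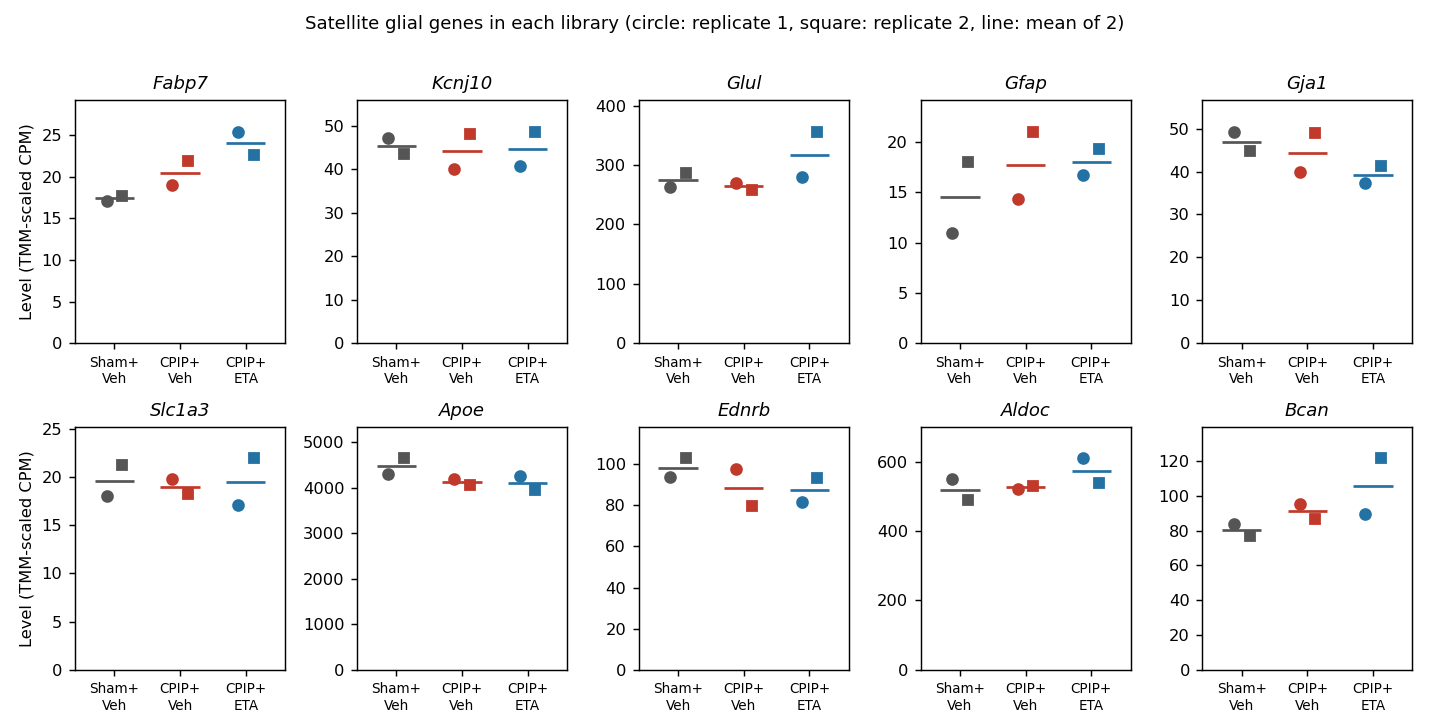
Level of each of the 10 genes (CPM, scaled by TMM) in the 6 libraries, with circles for replicate 1, squares for replicate 2 and a line at the mean of the 2 libraries of a group; each panel has its own axis, from 0. Fabp7 steps up from 17.1 and 17.7 in Sham+Veh to 22.7 and 25.4 in CPIP+ETA, while Kcnj10 and Slc1a3 overlap between all groups.

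Fabp7, the brain-type fatty acid binding protein a widely used satellite glial marker, showed the largest of these differences. Its level was 17.1 and 17.7 CPM (counts-per-million of the library's reads, scaled by TMM) in Sham+Veh, 19.0 and 21.9 CPM in CPIP+Veh, and 25.4 and 22.7 CPM in CPIP+ETA. Every CPIP+Veh library thus lay above both sham libraries, and every CPIP+ETA library above both CPIP+Veh libraries. Of all genes tested, 1.13% had their 6 libraries in that order. CPIP+ETA stood 37.9% above sham (log2 fold change 0.46, SE 0.11, 95% interval 0.21 to 0.72, edgeR adjusted p = 0.531). CPIP+Veh lay 0.23 above sham (SE 0.11, adjusted p = 0.938) and CPIP+ETA 0.23 above CPIP+Veh (SE 0.11, adjusted p = 0.938) on the log2 scale. Over the 16 alternative analyses the value against sham for CPIP+ETA ran from 0.39 to 0.55, with adjusted p from 0.286 to 0.983. The step from sham to CPIP+Veh was 0.12 without CPIP+Veh 2 and 0.33 when CPIP+Veh 1 was left out. The step from CPIP+Veh to CPIP+ETA was 0.15 without CPIP+ETA 1 and 0.31 without CPIP+ETA 2. It was 0.14 when CPIP+Veh 1 was left out and 0.34 when CPIP+Veh 2 was.

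Apoe, the apolipoprotein that glia secrete to carry cholesterol to neurons, pointed the other way. It stood at 4301 and 4647 CPM in Sham+Veh, 4198 and 4071 CPM in CPIP+Veh, and 4267 and 3949 CPM in CPIP+ETA. Both CPIP groups lay below both sham libraries, and they overlapped with each other. The log2 fold change was -0.11 (SE 0.06, 95% interval -0.26 to 0.03) for CPIP+Veh and -0.12 (SE 0.06, 95% interval -0.27 to 0.02) for CPIP+ETA against sham, with edgeR adjusted p = 0.948 and 0.817. Without Sham+Veh 2 they were -0.06 for both. CPIP+ETA and CPIP+Veh differed by -0.01 (SE 0.06), which became 0.02 without CPIP+Veh 1, 0.05 without CPIP+ETA 2 and -0.06 without CPIP+ETA 1. Against sham, CPIP+ETA lay at -0.17 without CPIP+ETA 1. Macrophages also make Apoe: the 14 macrophage markers summed to 304 and 297 CPM in sham, 290.4 and 312 CPM in CPIP+Veh, and 339 and 352 CPM in CPIP+ETA. None of them was under 0.1 CPM, and their part in the Apoe level was not tested.

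Among 17 other lipid carriers and receptors, 0 were called in any comparison. Above 0 lay 8, 8 and 5 of them in CPIP+Veh against sham, CPIP+ETA against CPIP+Veh and CPIP+ETA against sham. The shares of all genes above 0 were 49.0%, 49.6% and 49.3%. The 3 with the lowest p in the 3-group test were Fabp4, an adipocyte fatty acid carrier, Apod, a lipocalin of endoneurial and Schwann cells, and Pltp, a phospholipid transfer protein (adjusted p = 0.833, 0.858 and 0.858). Fabp4 was scarce, at 0.00 to 3.84 CPM. Apod stood at 1250.1 and 1340.4 CPM in sham, 1227 and 1477 CPM in CPIP+Veh, and 833 and 1115 CPM in CPIP+ETA, so that CPIP+ETA lay below the other groups. The Pltp values in the same order were 39.7 and 41.4, 39.5 and 41.1, and 36.3 and 33.1 CPM. Genes named for the lowest p of a list tend to have separated groups. Such separation, here and in the lists below, adds no support to the p-values.

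Glul, glutamine synthetase, turns the glutamate that the sheath takes up into glutamine. It stood at 264 and 286 CPM in Sham+Veh, 270.5 and 258 CPM in CPIP+Veh, and 279.7 and 356 CPM in CPIP+ETA. The groups without etanercept overlapped, and both CPIP+ETA libraries lay above both CPIP+Veh libraries, CPIP+ETA 2 by far the more. CPIP+ETA was 20.2% above CPIP+Veh (log2 fold change 0.27, SE 0.11, edgeR adjusted p = 0.938). This was 0.43 without CPIP+ETA 1 and 0.08 without CPIP+ETA 2. Against sham, CPIP+ETA lay at 0.21 (SE 0.11, adjusted p = 0.828), which became 0.38 without CPIP+ETA 1 and 0.03 without CPIP+ETA 2. CPIP+Veh lay at -0.06 from sham (SE 0.11, adjusted p = 0.98).

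Slc1a3, the glial glutamate transporter GLAST that feeds this step, overlapped between all 3 groups. Its level was 18.03 and 21.2 CPM in Sham+Veh, 19.8 and 18.2 CPM in CPIP+Veh, and 17.1 and 21.9 CPM in CPIP+ETA. All 3 log2 fold changes lay between -0.05 and 0.04 (SE 0.15, edgeR adjusted p = 0.982 to 0.995). The 95% interval for CPIP+Veh against sham, -0.40 to 0.30, gives the size of change that these libraries leave possible, and the sign turned with single libraries in every comparison. Without CPIP+ETA 1, CPIP+ETA lay at 0.21 from CPIP+Veh and at 0.17 from sham. Of 13 other genes of glutamate and glutamine handling 11 were tested and 0 were called. Slc1a2, a main glutamate uptake carrier of brain astrocytes, was counted only 21 times over the 6 libraries and is named after its values were seen. The 3 genes with the lowest p in the 3-group test were Slc38a2, a neutral amino acid transporter that carries glutamine, Got2, the mitochondrial aspartate aminotransferase, and the glutamine transporter Slc38a5 (adjusted p = 0.902, 0.911 and 0.917). Slc38a2 stood at 317 and 319 CPM in sham, 335 and 308 CPM in CPIP+Veh, and 347 and 356 CPM in CPIP+ETA.

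Kcnj10, the inward rectifier Kir4.1 through which glia clear potassium, is known to be lost from satellite glia in several models of nerve injury. Here it stood at 47.2 and 43.5 CPM in Sham+Veh, 40.05 and 48.3 CPM in CPIP+Veh, and 40.85 and 48.6 CPM in CPIP+ETA. The groups overlapped fully. The log2 fold changes were -0.04, 0.02 and -0.02 (SE 0.12 each) in CPIP+Veh against sham, CPIP+ETA against CPIP+Veh and CPIP+ETA against sham, with edgeR adjusted p from 0.987 to 0.990. The 95% interval for CPIP+Veh against sham ran from -0.32 to 0.25. Leaving out 1 library turned the sign of each, and CPIP+ETA lay at 0.14 from CPIP+Veh and 0.11 from sham without CPIP+ETA 1.

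Its partners in ion and water handling gave 0 calls among 14 genes tested. Atp1b2, a glial subunit of the sodium pump, and the water channel Aqp1 were among those with the lowest p in the 3-group test (adjusted p = 0.858 and 0.902). Atp1b2 stood at 102 and 111 CPM in sham, 110.4 and 122 CPM in CPIP+Veh, and 96.6 and 99.8 CPM in CPIP+ETA, which placed CPIP+ETA below the other groups. Aqp1 stood at 128 and 140.5 CPM in sham and at 111 to 123 CPM in the 4 CPIP libraries, all below sham. Both genes were picked for low p, which favours separated groups.

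Gja1, connexin 43, forms the gap junctions between satellite glia. Its level was 49.2 and 44.7 CPM in Sham+Veh, 40.0 and 48.9 CPM in CPIP+Veh, and 37.4 and 41.2 CPM in CPIP+ETA. CPIP+ETA lay below both sham libraries, while CPIP+Veh spanned nearly the whole range. The log2 fold change of CPIP+ETA against sham was -0.26 (SE 0.11, 95% interval -0.52 to 0.01, edgeR adjusted p = 0.787), and -0.18 without CPIP+ETA 1. Against CPIP+Veh it was -0.18 (SE 0.11, adjusted p = 0.938), which became -0.03 without CPIP+Veh 2. It was -0.31 when CPIP+Veh 1 was left out and -0.11 when CPIP+ETA 1 was. CPIP+Veh lay at -0.08 from sham (SE 0.11, adjusted p = 0.966), or at 0.06 without CPIP+Veh 1. Fibroblast markers, whose cells also make connexin 43, were low in the same libraries: the 10 markers summed to 3694 and 3949 CPM in sham, 2904 and 3553 CPM in CPIP+Veh, and 2346 and 3007 CPM in CPIP+ETA. All 10 fibroblast markers had a log2 fold change below 0 in CPIP+ETA against sham, with 0 called and 0 under 0.1 CPM. Their part in the Gja1 level was not tested.

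Of 12 other gap junction and pannexin genes 0 were called. Gjb2 and Gjb6, the connexins 26 and 30, and Tjp1, the junction scaffold ZO-1, had the lowest p in the 3-group test (adjusted p = 0.834, 0.902 and 0.902). Gjb2 stood at 17.1 and 20.8 CPM in sham, 22.8 and 19.1 CPM in CPIP+Veh, and 6.95 and 13.6 CPM in CPIP+ETA. For Gjb6 the values were 7.15 and 7.28, 6.33 and 7.87, and 1.06 and 4.57 CPM in the same order. For both, CPIP+ETA lay below every library of the other groups, a separation that choosing by lowest p makes likely. Tjp1 ran from 69.8 CPM in CPIP+ETA 1 to 89.3 CPM in CPIP+Veh 1.

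Bcan, the proteoglycan brevican of the matrix around neurons, was the other gene with an unadjusted p under 0.05. It stood at 83.7 and 76.9 CPM in Sham+Veh, 95.4 and 86.9 CPM in CPIP+Veh, and 89.6 and 121.6 CPM in CPIP+ETA. Both CPIP groups lay above both sham libraries and overlapped with each other, and CPIP+ETA 2 stood apart from the rest. CPIP+ETA was 31.4% above sham (log2 fold change 0.39, SE 0.14, 95% interval 0.06 to 0.73, edgeR adjusted p = 0.750). This was 0.61 without CPIP+ETA 1 and 0.16 without CPIP+ETA 2, and adjusted p over all 16 alternatives ran from 0.345 to 0.983. CPIP+Veh lay at 0.18 from sham (SE 0.14, adjusted p = 0.954), or at 0.12 without CPIP+Veh 1 or without Sham+Veh 2. CPIP+ETA lay at 0.21 from CPIP+Veh (SE 0.14, adjusted p = 0.938), which turned to -0.03 without CPIP+ETA 2 and was 0.42 without CPIP+ETA 1. Of 14 other genes of the perineuronal matrix 13 were tested and 0 were called. In CPIP+Veh against sham 7 lay above 0 and 6 below. Against CPIP+Veh and against sham alike, the CPIP+ETA group had 2 of the 13 above 0 and 11 below. Of all genes tested, 49.6% and 49.3% lay above 0 in these 2 comparisons. The list was chosen with earlier results of these data known, so the count is no test of it. Has2, a hyaluronan synthase, Cspg4, the proteoglycan NG2, and the link protein Hapln3 had the lowest p in the 3-group test (adjusted p = 0.838, 0.876 and 0.909). Has2 stood at 2.49 and 2.74 CPM in sham, 2.03 and 1.46 CPM in CPIP+Veh, and 1.31 and 1.09 CPM in CPIP+ETA.

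Gfap, the filament protein whose rise is the usual sign of glial reaction, had the widest gap of the 10 between the 2 libraries in Sham+Veh and in CPIP+Veh, though not in CPIP+ETA. It stood at 10.99 and 18.004 CPM in Sham+Veh, 14.3 and 21.0 CPM in CPIP+Veh, and 16.7 and 19.3 CPM in CPIP+ETA. The 3 groups overlapped. The sham libraries had a coefficient of variation of 34.2%, against a counting error of 7.01% at the lowest count. The log2 fold change was 0.28 in CPIP+Veh (SE 0.26, 95% interval -0.35 to 0.92, edgeR adjusted p = 0.957) and 0.31 in CPIP+ETA (SE 0.26, 95% interval -0.32 to 0.94, adjusted p = 0.892) against sham. The value for CPIP+Veh became -0.02 without Sham+Veh 1 or without CPIP+Veh 2. The value for CPIP+ETA became 0.01 without Sham+Veh 1, 0.71 without Sham+Veh 2 and 0.42 without CPIP+ETA 1. CPIP+ETA lay at 0.03 from CPIP+Veh (SE 0.26), with a sign that turned without CPIP+Veh 1 (-0.22) or CPIP+ETA 2 (-0.08). With CPIP+Veh 2 left out it was 0.33, and with CPIP+ETA 1 left out 0.13.

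Astrocytes of the spinal cord also make Gfap, and their markers were summed in each library. The 8 markers summed to 24.2 and 18.2 CPM in sham, 21.5 and 23.5 CPM in CPIP+Veh, and 15.2 and 18.2 CPM in CPIP+ETA, with Slc7a10 under 0.1 CPM. The astrocyte markers of highest mean level, which held most of the sum, were Gjb6 (1.06 to 7.87 CPM) and Aldh1l1 (3.94 to 9.21 CPM). Aqp4 stood at 0.87 and 1.04 CPM in sham, 4.15 and 1.31 CPM in CPIP+Veh, and 4.18 and 0.38 CPM in CPIP+ETA. Slc1a2 (0.05 to 0.33 CPM) and Mlc1 (0.16 to 0.45 CPM) were scarce. Of the 5 astrocyte markers tested, 2 lay above 0 and 3 below in CPIP+ETA against sham, and 0 were called. The 10 oligodendrocyte markers summed to 35.8 to 55.5 CPM, with Opalin, Olig1 and Olig2 under 0.1 CPM. Most of that sum came from Cldn11 (9.57 to 25.4 CPM), Myrf (12.6 to 14.8 CPM), Hapln2 and Sox8. Mobp (0.05 to 0.25 CPM) and Mog (0.11 to 1.08 CPM) were scarce, so the sum rests on few of its members. What spinal cord cells add to the Gfap level was not tested. Of 17 other genes of glial reaction 15 were tested and 0 were called. The lowest p in the 3-group test belonged to Synm, an intermediate filament that pairs with vimentin and Gfap, to Timp1, an inhibitor of matrix proteases, and to the complement component C3 (adjusted p = 0.754, 0.834 and 0.858). Synm stood at 510 and 510 CPM in sham, 516 and 489 CPM in CPIP+Veh, and 572 and 593 CPM in CPIP+ETA, which placed CPIP+ETA above every other library. Picking genes by lowest p favours such separation. Timp1 stood at 41.9 and 47.9 CPM in sham and at 53.2 to 63.8 CPM in the 4 CPIP libraries.

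Ednrb, the endothelin B receptor through which endothelin acts on satellite glia, stood at 93.6 and 102.8 CPM in Sham+Veh, 97.5 and 79.7 CPM in CPIP+Veh, and 81.8 and 93.3 CPM in CPIP+ETA. CPIP+ETA lay just below both sham libraries and overlapped with CPIP+Veh. The log2 fold change was -0.15 (SE 0.11, edgeR adjusted p = 0.954) for CPIP+Veh and -0.17 (SE 0.11, adjusted p = 0.871) for CPIP+ETA against sham. The first was -0.01 without CPIP+Veh 2 and -0.30 without CPIP+Veh 1, and the second was -0.07 without CPIP+ETA 1 and -0.26 without CPIP+ETA 2. CPIP+ETA lay at -0.02 from CPIP+Veh (SE 0.11), which became 0.14 without CPIP+Veh 1 and 0.08 without CPIP+ETA 1. Of 7 other genes of the endothelin system 6 were tested and 0 were called. Ece1 and Ece2, enzymes that cut endothelin from its precursor, and the ligand Edn3 had the lowest p in the 3-group test (adjusted p = 0.909, 0.919 and 0.933). Ece1 stood at 139 and 134 CPM in sham and at 122 to 132 CPM in the 4 CPIP libraries.

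Aldoc, the aldolase isoform of brain and glia in glycolysis, stood at 549 and 488 CPM in Sham+Veh, 522 and 530 CPM in CPIP+Veh, and 609 and 538 CPM in CPIP+ETA. Both CPIP+ETA libraries lay above both CPIP+Veh libraries and overlapped with sham. CPIP+ETA lay at 0.13 from CPIP+Veh (SE 0.08, edgeR adjusted p = 0.938) and at 0.14 from sham (SE 0.08, adjusted p = 0.835) on the log2 scale. They became 0.04 and 0.06 without CPIP+ETA 1, and 0.21 and 0.24 without CPIP+ETA 2. The value against sham was also 0.24 without Sham+Veh 1 and 0.07 without Sham+Veh 2. CPIP+Veh differed from sham by 0.02 (SE 0.08), or by -0.06 without Sham+Veh 2. Neurons also make aldolase C, and the 14 neuronal markers summed to 48612 CPM in CPIP+ETA 1 and to between 43840 and 45791 CPM in the other libraries. The neurofilament genes Nefl, Nefm and Nefh held most of each sum and most of the excess of CPIP+ETA 1. In CPIP+ETA against sham 10 of the 14 markers lay above 0 and 4 below, with 0 called. The part of neurons in the Aldoc level was not tested. Of 23 other genes of glycolysis and lactate transport 0 were called. Above 0 lay 16 in CPIP+Veh against sham, 11 in CPIP+ETA against CPIP+Veh and 18 in CPIP+ETA against sham. Of all genes tested, 49.0%, 49.6% and 49.3% lay above 0 in these comparisons. Eno1, an enolase, Hk2, a hexokinase, and the glucose transporter Slc2a3 had the lowest p in the 3-group test (adjusted p = 0.847, 0.858 and 0.858). Hk2 stood at 7.69 and 9.96 CPM in sham, 10.6 and 10.2 CPM in CPIP+Veh, and 11.9 and 13.3 CPM in CPIP+ETA.

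**Figure D2:**
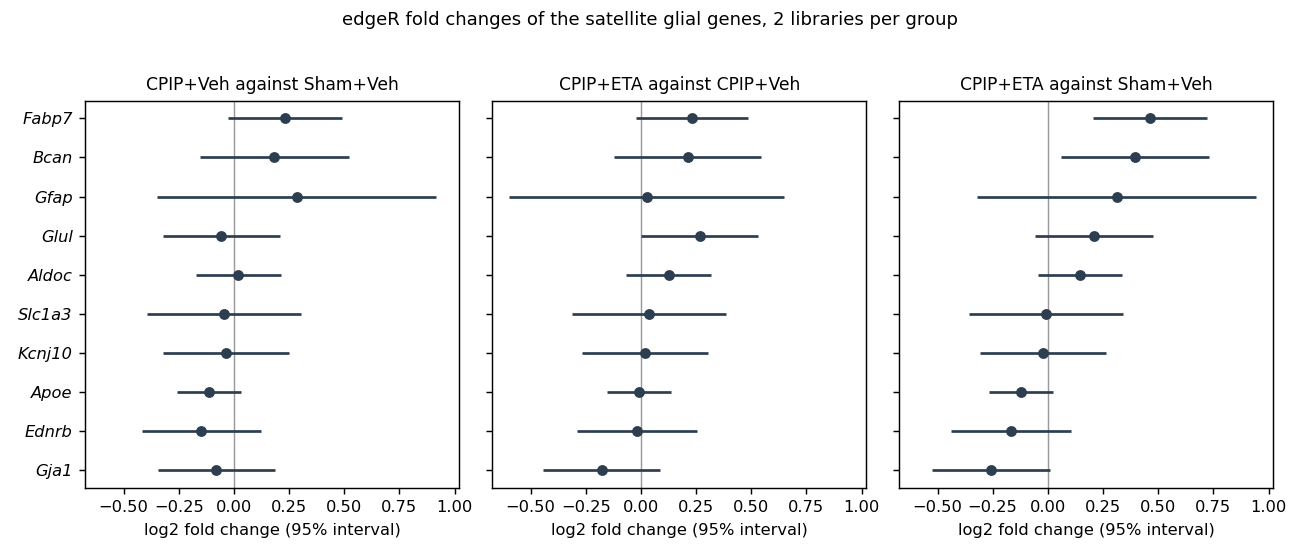
Log2 fold change of each of the 10 genes (points, edgeR) with its 95% interval (lines) in the 3 comparisons, with 2 libraries per group; genes are ordered by CPIP+ETA against Sham+Veh. Only the intervals of Fabp7 (0.21 to 0.72) and Bcan (0.06 to 0.73) lie wholly on one side of 0, both in CPIP+ETA against Sham+Veh and before adjustment for the number of genes tested.

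Separation of the libraries was counted next, beside its share among all genes tested. In CPIP+Veh against sham 2 of 10 lay wholly above (Fabp7 and Bcan, against 17.6% of all genes) and 1 of 10 wholly below (Apoe, against 19.5%). In CPIP+ETA against CPIP+Veh 3 of 10 lay wholly above (Fabp7, Glul and Aldoc, against 15.7%) and 0 wholly below (16.9%). In CPIP+ETA against sham 2 of 10 lay wholly above (Fabp7 and Bcan, 17.2%) and 3 wholly below (Gja1, Apoe and Ednrb, 18.5%).

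The 10 genes did not share 1 pattern across the 6 libraries. As a description over 6 libraries that share scaling, the Pearson correlation of each gene with the mean of the other 9 ran from -0.60 (Apoe) to 0.76 (Glul). Replicate 2 was the higher for 6 of 10 in Sham+Veh, 5 of 10 in CPIP+Veh and 7 of 10 in CPIP+ETA, against 51.1%, 50.4% and 50.0% of all genes. The median gap between the 2 libraries of a group was 0.13, 0.17 and 0.20 on the log2 scale for the 10 genes, and 0.11, 0.11 and 0.13 for all genes. In CPIP+ETA the genes that were higher in replicate 2 included Bcan (by 0.44), Slc1a3 (0.36), Glul (0.35) and Kcnj10 (0.25), and those that were lower were Aldoc, Fabp7 and Apoe. Summed without Apoe, which alone outweighs the others in counts, the 9 genes came to 1133 and 1099 CPM in sham, 1119 and 1112 CPM in CPIP+Veh, and 1198 and 1262 CPM in CPIP+ETA, a sum formed after the values were seen. With Apoe, the 10 genes came to 5434 and 5746 CPM in sham, 5317 and 5183 CPM in CPIP+Veh, and 5465 and 5212 CPM in CPIP+ETA. Aldoc had the highest level of the 9, at 549 and 488 CPM in sham and 609 and 538 CPM in CPIP+ETA. The excess of the 9-gene sum over the sham mean was mostly Aldoc in CPIP+ETA 1. In CPIP+ETA 2 it was mostly Glul (356 CPM against a sham mean of 275) and Bcan (121.6 against 80.3). Gja1 and Ednrb lay below sham in both libraries.

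The mean of the 10 genes on the centred log2 scale was lowest in Sham+Veh 1 (-0.08) and highest in CPIP+ETA 2 (0.13). Among 9735 genes of at least 10 CPM with established symbols, the 3 whose level over the 6 libraries was most like that mean were Rbm4 (Pearson correlation 0.99), Banp (0.97) and Top1mt (0.97). Rbm4 stood at 26.7 and 28.8 CPM in sham, 27.2 and 29.4 CPM in CPIP+Veh, and 28.0 and 31.8 CPM in CPIP+ETA. With only 6 points that share library and scaling, 65 of the 9735 genes had a correlation above 0.9, and it is given as a description.

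**Figure D3:**
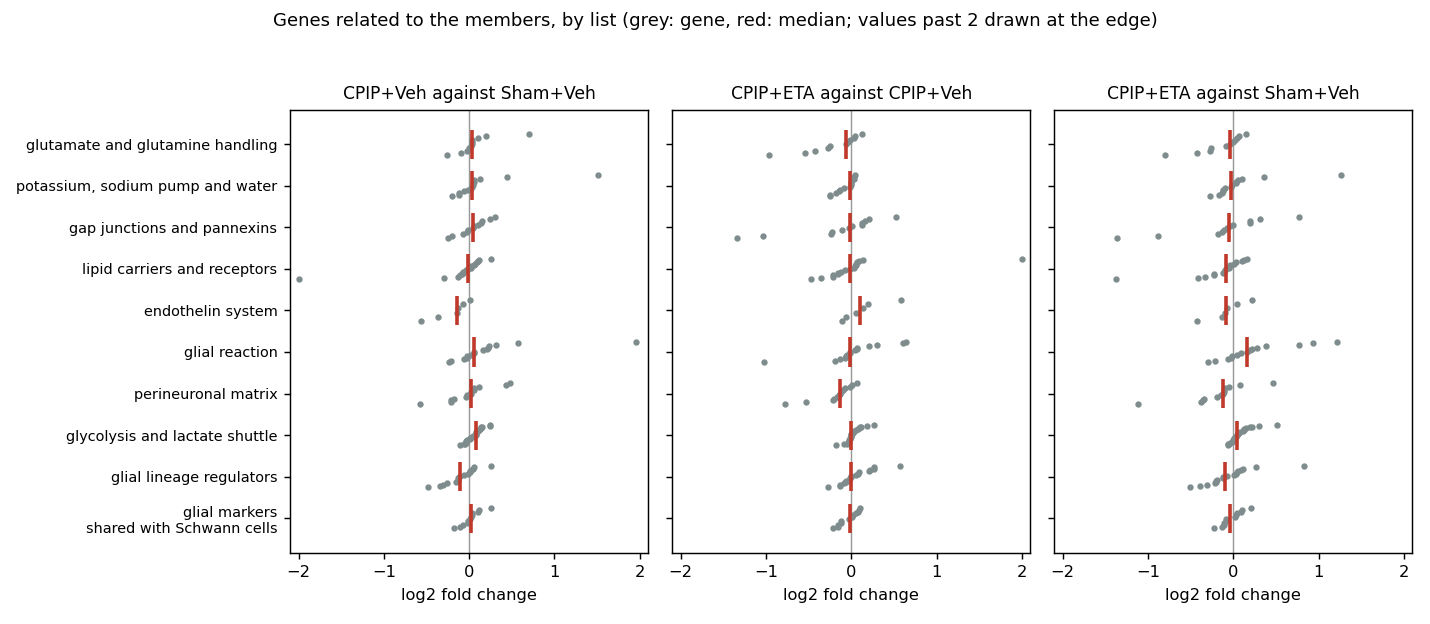
Log2 fold changes of genes related to the 10 by role (grey points, 1 per gene tested) with the median of each list (red line), in the 3 comparisons; values beyond 2 are drawn at the edge, and a gene in 2 lists is drawn in both. The medians lie between -0.14 and 0.16.

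The 10 lists of related genes held 144 further genes, 138 of them tested, and 0 were called in any comparison. Before adjustment, p was under 0.05 for 9 genes (6.52%) in CPIP+Veh against sham, 12 (8.7%) in CPIP+ETA against CPIP+Veh and 18 (13.0%) in CPIP+ETA against sham, where all genes gave 4.94%, 5.15% and 6.37%. Their median log2 fold changes were 0.02, -0.02 and -0.03. The lists were chosen with earlier results of these data known, so the shares of low p are no test of them. The glial lineage regulators gave 0 calls among 18 tested, with Notch1, a receptor that keeps glial progenitors from becoming neurons, the transcription factor Nfia and the neuregulin receptor subunit Erbb2 lowest in p in the 3-group test (adjusted p = 0.754, 0.902 and 0.902). Notch1 stood at 63.4 and 61.7 CPM in sham, 67.6 and 62.5 CPM in CPIP+Veh, and 73.7 and 77.1 CPM in CPIP+ETA, with CPIP+ETA above every other library. Here too the choice by lowest p favours separation. Glial markers that satellite and Schwann cells share gave 0 calls among 12. In that list the 3 lowest p in the 3-group test were those of Sparc, a matrix glycoprotein, Fabp5, a fatty acid carrier, and Cnp, a myelin enzyme (adjusted p = 0.902, 0.902 and 0.909). Sox10, the transcription factor that defines peripheral glia, and S100b, a calcium-binding protein of glia, had log2 fold changes of 0.10 and 0.02 in CPIP+ETA against sham; these 2 were chosen after their values were seen.

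Markers of the other cells in the ganglion also varied between libraries. The 12 markers of myelinating Schwann cells summed to 12127 and 14647 CPM in sham, 14251 and 11731 CPM in CPIP+Veh, and 9725 and 14118 CPM in CPIP+ETA, with CPIP+ETA 1 the lowest. The 7 markers of non-myelinating Schwann cells summed to 2835 to 3066 CPM. The 12 endothelial markers summed to 249 to 303 CPM, and the 10 markers of pericytes and smooth muscle to 199.96 and 211 CPM in sham and 150.4 to 180 CPM in the 4 CPIP libraries. Of these lists 0 markers were called in any comparison. What these shifts add to the level of the 10 genes was not tested.

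**Figure D4:**
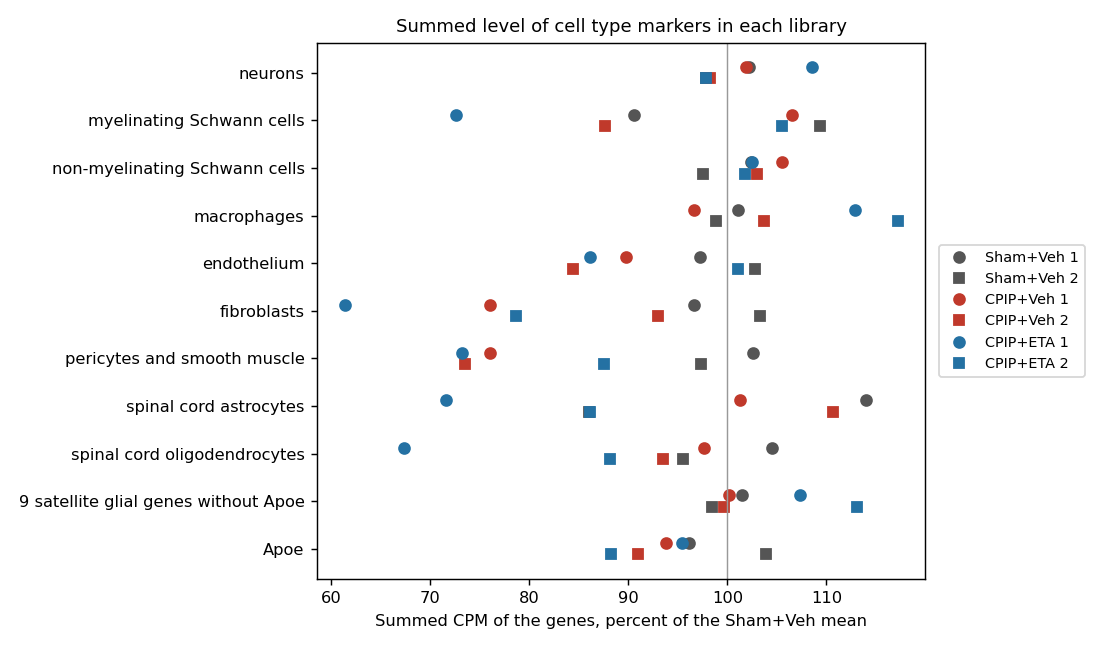
Summed CPM of each marker list, of 9 of the 10 satellite glial genes and of Apoe in every library, as a percentage of the Sham+Veh mean (grey: Sham+Veh, red: CPIP+Veh, blue: CPIP+ETA; circle: replicate 1, square: replicate 2). In CPIP+ETA the 9 genes, a sum formed after the values were seen, reach 107% and 113%, and Apoe 95.4% and 88.3%. The excess of the 9 genes is mostly Aldoc in CPIP+ETA 1 and mostly Glul and Bcan in CPIP+ETA 2. The macrophage sum reaches 113% and 117% in CPIP+ETA, most of the excess being Mrc1 and Cd163, and the fibroblast sum 61.4% and 78.7%. None of the macrophage or fibroblast markers was called.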

How the data were processed

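The authors deposited 1 table of expected counts (estimated read numbers, often with decimals) for 6 libraries, each column named by a sample title. Per the labels' protocols, RNA with a RIN of at least 8.0 was sequenced on a BGISEQ-500. The submitters' processing notes name the build Rnor_6.0. What aligned and counted the reads, with which annotation and strand setting, was not given in the sources used here. Blank cells (2907 genes) were read as 0 and values rounded.

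All genes were tested in R 4.3.3 with edgeR 4.0.16 (quasi-likelihood F-test): 1 fit of the 6 libraries with group as the only term, TMM scaling and filterByExpr (minimum count 10, total 15). The fit had 3 residual and 3.64 prior degrees of freedom. A standard error is the log2 fold change divided by the root of F, and 95% intervals use t with 6.64 degrees of freedom. Libraries of a group were not copies of one another: their chi-square per gene was 5.91 to 9.83, above sampling noise.

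The 10 genes, the gene lists and the rule for naming genes (3 lowest p in the 3-group test per list, of which 1 is not reported here) were chosen with earlier results of these data known. The alternatives tried were scaling by RLE, upper quartile or library total, no filter or 1 CPM in 2 libraries, DESeq2 1.42.0, limma-voom (limma 3.58.1), the 2 groups alone, a replicate block, a robust prior, and each library left out in turn, which assumes that a lone library varies like the remaining groups. The procedure was tested on simulated data, in which every planted change was larger than any seen among the 10 genes. That test therefore does not show whether changes as small as theirs would be called. All 10 identifiers and symbols matched RefSeq. Figures were drawn with matplotlib 3.10.9.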

Additional observations from a re-analysis of the deposited data

How the results depend on the processing

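None of the 10 genes was called under any alternative in the 3 pairwise comparisons or, where it was run, in the 3-group test. Of 300 fold changes under the 10 settings that keep all libraries, 300 kept their sign. With 1 library left out, 24 of 180 changed sign, and the lowest adjusted p among these was 0.763. The cause was not tested. Over the libraries left out, the median of the 10 genes ran from -0.038 to 0.045 in CPIP+Veh against sham, -0.052 to 0.14 in CPIP+ETA against CPIP+Veh and -0.017 to 0.14 in CPIP+ETA against sham. In CPIP+Veh against sham the log2 fold change ran from -0.18 to 0.092 for Kcnj10, -0.11 to 0.0045 for Glul, -0.021 to 0.68 for Gfap, -0.23 to 0.059 for Gja1, -0.15 to 0.077 for Slc1a3 and -0.061 to 0.11 for Aldoc. In CPIP+ETA against CPIP+Veh it ran from -0.11 to 0.16 for Kcnj10, -0.22 to 0.33 for Gfap, -0.15 to 0.21 for Slc1a3, -0.064 to 0.045 for Apoe, -0.16 to 0.14 for Ednrb and -0.025 to 0.42 for Bcan. In CPIP+ETA against sham it ran from -0.15 to 0.11 for Kcnj10 and -0.20 to 0.17 for Slc1a3.

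With the title number as a replicate block, 0 of the 10 genes were called in each test, and over all genes 3, 0, 3 and 1 were called in the 3 comparisons and the 3-group test, the numbers without it. The labels do not tie equal numbers together, and the deviations of equally numbered libraries correlated at 0.03, -0.11 and 0.05 between groups. Over all genes DESeq2 called 49, 21, 50 and 77, limma-voom 2, 0 and 1 in the 3 comparisons, and fits of the 2 groups alone 2, 0 and 1. The 2 libraries per group limit precision: the 95% interval of Gfap in CPIP+Veh against sham ran from -0.35 to 0.92.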

Other observations

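Among the related genes, Hk2 and Lifr, the receptor of leukaemia inhibitory factor, had all libraries in the order Sham+Veh, CPIP+Veh, CPIP+ETA upward, as Fabp7 did. Has2 and Sparc had them in that order downward. Of all genes tested, 1.13% were in the upward order and 1.6% in the downward one. None of these 4 was called by edgeR (adjusted p = 0.623 to 0.769 in CPIP+ETA against Sham+Veh), and they were chosen after their values were seen. Sparc stood at 1806 and 2034 CPM in sham, 1775 and 1796 CPM in CPIP+Veh, and 1535 and 1749 CPM in CPIP+ETA.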
